A study of Arabidopsis thaliana with 12 samples.

Results

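Roots of the Arabidopsis thaliana double mutant arr10 arr12 were compared with wild-type roots that had received only DMSO, the solvent of the cytokinin used elsewhere in the study. The comparison rests on the 3 arrays labelled as DMSO-treated mutant and the 3 labelled as DMSO-treated wild type, 6 of the 12 arrays of the study, and runs over all probe sets other than the array's control probes. Col-0 served as wild type, and the mutant carries mutations of both arr10 and arr12, from the lines SALK_098604 and SALK_054752 per the labels. All plants were seedlings grown for 2 weeks on vertical agar plates, and the tissue label reads roots, although the extraction protocol speaks of harvested seedlings. The other 6 arrays hold the same genotypes treated with trans-zeatin, a natural cytokinin, at a concentration and for a time not given in the labels. RNA was hybridised to Affymetrix ATH1 arrays, which report a signal per probe set on a linear scale. The labels do not say whether the replicates were grown separately, and the p-values cover only the spread among the arrays, which may be technical.

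Cytokinin is sensed by histidine kinase receptors that pass a phosphate to type-B response regulators, transcription factors that switch on cytokinin-responsive genes. ARR10 and ARR12 are type-B regulators with a large share in this relay in roots, where cytokinin limits the size of the meristem and shapes vascular development. Type-A response regulators are among the direct targets of the type-B proteins and feed back negatively on the signal. Roots also make their own cytokinin, so a comparison without added hormone asks what these regulators do at the level of signalling the plant sets by itself.

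The wild-type DMSO arrays stood apart from the other 9 arrays of the study on the first principal component of all 12, which held 29.2% of the variance. Among the 6 DMSO arrays the first component held 51.9% of the variance and followed genotype. Wild-type arrays 1, 2 and 3 lay at -23.0, -12.4 and -6.63, and mutant arrays 1, 2 and 3 at 16.8, 17.4 and 7.79. Array 3 of each genotype thus lay nearest to the other genotype. Correlation across probe sets, after log2 transformation, was 0.981 to 0.990 between arrays of a genotype and 0.966 to 0.988 between genotypes. The median signal ranged from 39.3 to 41.1, and the ratio of 3′ to 5′ signal for actin, a sign of RNA integrity, ranged from 1.42 to 1.65 in wild type and from 1.36 to 1.70 in the mutant. ARR10 and ARR12 have no annotated probe set here, so the mutation could not be checked by gene name. Whether a probe set without an annotation entry measures either gene was not tested. Of 14 root-hair genes listed, 4 had a tested probe set. Among them was the root peroxidase gene AT4G26010, with a mean signal of 459 in wild type. The lists of xylem and phloem markers had no annotated probe set. Transcripts typical of green tissue were also present, and their summed signal over 4 genes was 634 to 751 on the wild-type and 418 to 464 on the mutant arrays. Their part in the other results was not tested.

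Of 13647 probe sets tested, 401 were lower and 270 were higher in arr10 arr12 under DMSO. These are 2.94% and 1.98% of those tested, and 4.92% together. A probe set was called when limma's moderated test, adjusted over all tested probe sets, gave an adjusted p below 0.05. Differences are given as log2(signal + 6.65) in the mutant minus that in wild type, with the standard error (SE, n = 3 arrays a group), and this scale understates the change of dim probe sets. The median difference was -0.62 among the lower calls and 0.48 among the higher ones, against 0.02 over all tested probe sets. At least 2-fold differences were seen in 33 lower and 10 higher probe sets. The mutant and wild-type signals did not overlap for 665 of the 671 calls, and for 26.9% of all tested probe sets. Named genes were present for 177 of the lower and 141 of the higher calls, and 342 calls had no annotation entry.

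The calls depended on single arrays. Without wild-type array 1 or 2 the count was 207 or 232, and without mutant array 1 or 2 it was 163 or 173. It was 901 without wild-type array 3 and 662 without mutant array 3. Without wild-type array 3 there were 453 higher and 448 lower calls, so the excess of lower calls was lost there. A core of 127 probe sets, 95 lower and 32 higher, passed in all 6 of these fits, which is 18.9% of the calls. Below, a gene is said to be lost when it missed the threshold without 1 of the 6 DMSO arrays, and its highest adjusted p in those fits is given.

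**Figure D1:**
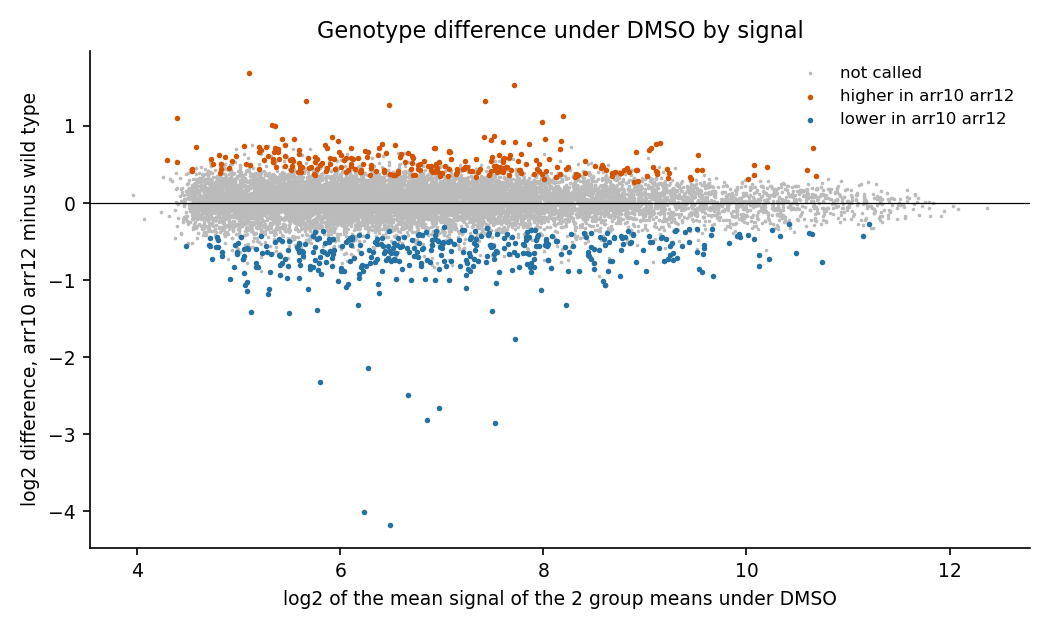
Each point is 1 tested probe set, with the log2 of the mean of the wild-type and mutant mean signals under DMSO on the horizontal axis and the log2 difference, arr10 arr12 minus wild type, on the vertical axis; orange points are the 270 higher and blue points the 401 lower calls. The lower calls reach -4.18, while the higher calls end at 1.68.

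Transcripts for the late, anthocyanin-specific steps of the flavonoid pathway were much lower in arr10 arr12, whereas 2 transcripts for other steps of the pathway were higher. Flavonoids are phenolic compounds made from phenylalanine by a shared set of early enzymes, after which one branch leads to flavonols and another to the coloured anthocyanins. Of 21 enzyme genes listed for the pathway, 9 had an annotated probe set and 7 were tested. In that group 3 were lower, 2 were higher and 2 did not pass, against 2.94% lower and 1.98% higher over all tested probe sets.

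DFR encodes dihydroflavonol reductase, which opens the anthocyanin branch. Its signal was 391, 354 and 242 on wild-type arrays 1, 2 and 3 and 29.7, 35.3 and 54.7 on the mutant arrays. Every wild-type value was above every mutant value by a wide margin, with a log2 difference of -2.86 ± 0.19 (adjusted p = 2.1e-07). UF3GT, which adds xylose to anthocyanins, gave signals of 263, 159 and 113 in wild type and 20.2, 23.3 and 31.1 in the mutant. AT4G14090, which encodes an anthocyanin 5-O-glucosyltransferase, gave 177, 127 and 89.7 in wild type and 23.1, 22.0 and 25.7 in the mutant. In all 3 genes wild-type array 3 had the lowest wild-type signal, the groups did not overlap, and the call held without any 1 DMSO array. The differences were -2.49 ± 0.24 (adjusted p = 3.9e-05) for UF3GT and -2.14 ± 0.24 (adjusted p = 1.6e-04) for AT4G14090.

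AT5MAT, which attaches malonate to the 5-glucoside of anthocyanins, was too dim for the main fit. In a fit without the filter on low signal, in which 1.85% of all 22746 probe sets passed, it was lower as well. Its signal was 40.9, 34.5 and 26.7 in wild type and 6.04, 9.51 and 6.66 in the mutant, a difference of -1.53 (adjusted p = 8.6e-04). The lower mutant values lie near the offset, so the size of this difference is set in part by the offset. BAN, an enzyme of proanthocyanidin synthesis known from the seed coat, was at or below 2.06 on average in both genotypes and did not pass.

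None of the other 4 tested members of the pathway was called lower. AT1G06000 encodes a flavonol 7-O-rhamnosyltransferase, and its signal was 233, 239 and 231 in wild type and 331, 357 and 291 in the mutant. All mutant values were higher, by 0.46 ± 0.09 (adjusted p = 0.0095), and the call was lost without mutant array 1 or 2 (up to 0.064). CHIL, a non-catalytic relative of chalcone isomerase that aids the early steps, had 191, 175 and 186 in wild type and 260, 285 and 209 in the mutant. The difference of 0.43 ± 0.10 (adjusted p = 0.029) was lost without array 1 or 2 of either genotype (up to 0.15). UGT78D2, a flavonoid 3-O-glucosyltransferase gene that serves both branches, gave 0.27 (adjusted p = 0.34), with mutant array 3 at 152 inside the wild-type range of 145 to 167. UGT78D1, a flavonol rhamnosyltransferase gene, gave -0.10 (adjusted p = 0.68). The regulators of the pathway had no annotated probe set. HCT and CCR2, of the lignin branch of phenylpropanoid metabolism, gave -0.21 and -0.29 and did not pass.

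**Figure D2:**
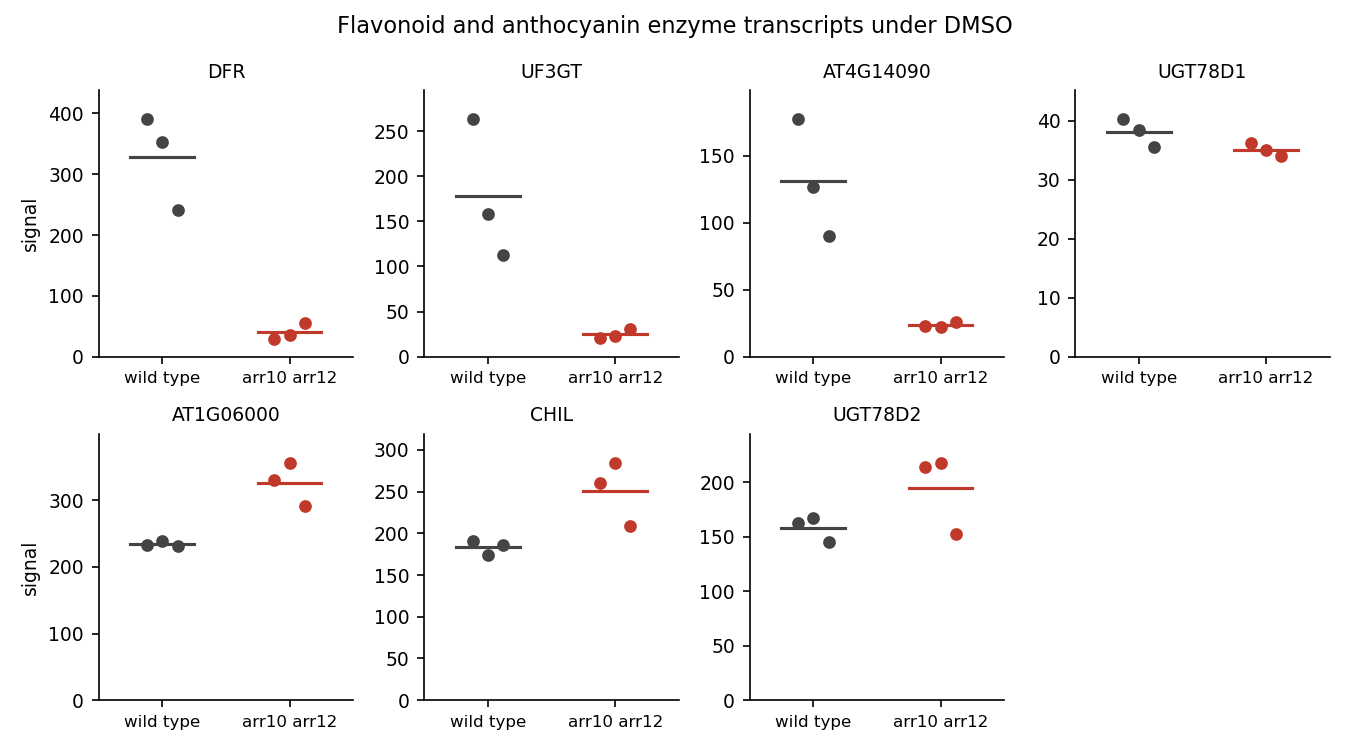
Signal of the 7 tested flavonoid and anthocyanin enzyme genes on each DMSO array (points) with the group mean (line), wild type in grey and arr10 arr12 in red; each axis starts at 0. DFR, UF3GT and AT4G14090 are lower on all mutant arrays, AT1G06000 and CHIL are higher on all mutant arrays, and the groups overlap for UGT78D1 and UGT78D2.

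Nuclear genes of photosynthesis were lower in the mutant, while transcripts encoded by the plastid genome tended to be higher. On the list of leaf photosynthetic cells, 4 of 24 genes had a tested probe set and all 4 were lower, against 2.94% of all tested probe sets, with a median of -0.64 against 0.02. LHCB4.2, a light-harvesting antenna protein of photosystem II, had signals of 112, 132 and 136 in wild type. In the mutant they were 56.4, 62.2 and 84.5, a difference of -0.86 ± 0.14 (adjusted p = 0.0023). PRK, the Calvin cycle enzyme phosphoribulokinase, had 49.2, 61.4 and 58.7 in wild type and 30.2, 31.3 and 32.3 in the mutant, a difference of -0.73 ± 0.14 (adjusted p = 0.0081). In neither gene did the groups overlap, and both calls held without any 1 DMSO array. LHCB4.1, a close relative of LHCB4.2, was lower in the same way, from 299 ± 37.8 (SD) to 200 ± 5.05. RCA, rubisco activase, had 249, 217 and 173 in wild type and 135, 143 and 150 in the mutant, and its call was lost without array 1 or 2 of either genotype (up to 0.073). Because the arrays measured whole tissue, fewer green cells and less RNA per cell cannot be told apart, and neither can a different share of shoot tissue in the harvest.

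Some further nuclear genes tied to photosynthesis were also lower. HPR, peroxisomal hydroxypyruvate reductase of photorespiration, was 78.6 ± 3.75 (SD) in wild type and 42.0 ± 6.44 in the mutant (-0.82 ± 0.13, adjusted p = 0.0019). PSBW, a small subunit of photosystem II, was 136 ± 16.4 and 87.3 ± 5.71 (-0.60 ± 0.12, adjusted p = 0.014), and its call was lost without array 1 or 2 of either genotype (up to 0.075). Both genes were chosen after their values were seen, so they do not extend the count from the list. On the chlorophyll synthesis list, PORB, a light-dependent protochlorophyllide oxidoreductase, had widely spread signals of 91.8, 152 and 189 in wild type and 65.1, 61.1 and 109 in the mutant. The PORB groups overlapped, since mutant array 3 lay above wild-type array 1, and its call (-0.82, adjusted p = 0.049) was lost without 4 of the 6 arrays (wild-type array 2 or 3, mutant array 1 or 2; up to 0.21). CHLM, a methyltransferase of the same pathway, gave -0.40 and did not pass (adjusted p = 0.074).

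The plastid genome encodes core subunits of both photosystems, the ATP synthase, the large subunit of rubisco and parts of its own ribosome and RNA polymerase. Of its 69 probe sets, 56 were tested. Of these, 5 were higher and 0 lower in the mutant by limma (8.93% called, against 4.92% of all tested probe sets), and 47 had a positive difference. Their median was 0.28, against 0.02 over all tested probe sets. The groups did not overlap for 12 probe sets with higher and 1 with lower signal in the mutant. Over all 13647 tested probe sets this held for 2114 with higher and 1558 with lower signal, 26.9% together. The calls were psaA, a core protein of photosystem I, psaI, a small subunit of the same complex, psbC, an inner antenna protein of photosystem II, rbcL, the large subunit of rubisco, and rpl14, a ribosomal protein.

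For psaA the signal was 63.6, 95.8 and 115 in wild type and 157, 153 and 142 in the mutant (0.71 ± 0.16, adjusted p = 0.019). For rbcL it was 96.2, 93.8 and 114 in wild type and 143, 174 and 133 in the mutant (0.53 ± 0.12, adjusted p = 0.019). The groups were separate in both genes. The other calls were rpl14 at 0.66, psaI at 0.62 and psbC at 0.59. Differences as large in rps15 (0.74, adjusted p = 0.055) and rps4 (0.72, adjusted p = 0.057), both ribosomal proteins, did not pass. Genes near 0 included psbA (0.08), petB (0.03), psbH (0.01) and clpP (-0.02), so the shift was not shared by every plastid gene.

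The plastid-encoded calls rested on few arrays. Without wild-type array 1, 0 of the 56 passed, 39 were positive and the median was 0.12. Without wild-type array 3, 16 passed and the median was 0.42. None passed without mutant array 1 or mutant array 2, although 50 and 47 differences were positive and the medians were 0.26 and 0.24, respectively. The count was 1 without wild-type array 2 and 3 without mutant array 3. Over all 69 probe sets the median log2(signal + 6.65) was 6.62, 6.76 and 6.99 on wild-type arrays 1, 2 and 3 and 7.23, 7.09 and 7.12 on mutant arrays 1, 2 and 3. Wild-type array 1 was the lowest of the 6, and the groups did not overlap in this median. Summed over the same 69 probe sets, the signal was 12838, 14460 and 16977 in wild type and 16794, 16737 and 17387 in the mutant. These sums overlapped, since wild-type array 3 lay above mutant arrays 1 and 2. Under trans-zeatin, measured on other arrays, the same 56 probe sets had a median genotype difference of 0.01, with 32 positive and 0 called, while the 4 leaf genes kept a median of -0.47 with 2 called. In the test of the difference between treatments 0 of the 56 passed by limma, and 10 had an unadjusted p below 0.05.

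**Figure D3:**
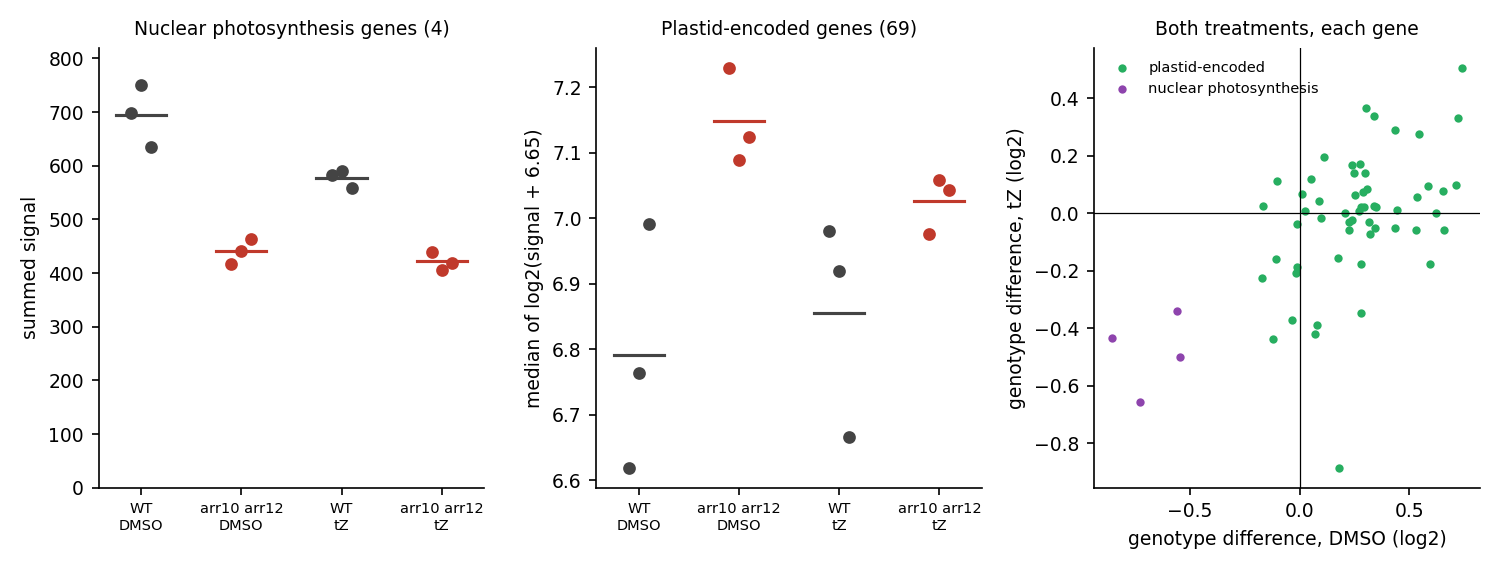
The left panel shows the summed signal of 4 nuclear photosynthesis genes and the middle panel the median log2(signal + 6.65) of the 69 plastid-encoded probe sets, for each of the 12 arrays (points) with group means (lines), wild type (WT) in grey and arr10 arr12 in red, under DMSO or trans-zeatin (tZ). The right panel sets the genotype difference under DMSO against that under tZ for the 56 tested plastid-encoded and the 4 nuclear genes: all 4 nuclear genes are below 0 under both treatments, and 47 plastid-encoded genes are above 0 under DMSO.

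Among the named genes with the largest lower values, several encode enzymes and transporters of primary and secondary metabolism. ALDH11A3, a cytosolic glyceraldehyde-3-phosphate dehydrogenase that makes NADPH, had signals of 73.2, 60.1 and 64.7 in wild type and 31.2, 23.6 and 37.7 in the mutant (-0.97 ± 0.14, adjusted p = 0.0011). STR18, a sulfurtransferase, had 470, 383 and 337 in wild type and 195, 203 and 233 in the mutant (-0.89 ± 0.14, adjusted p = 0.0019). AT5G16010, of the steroid 5-alpha-reductase family, had 618, 589 and 501 in wild type and 248, 311 and 320 in the mutant (-0.95 ± 0.12, adjusted p = 5.0e-04). In each of these 3 genes the groups were far apart and the call held without any 1 DMSO array. AT1G72140, of the nitrate and peptide transporter family, gave -0.89 and was lost without wild-type array 1 or mutant array 2 (up to 0.066). AT1G26390, a berberine bridge enzyme-like gene, had 65.3, 58.9 and 37.6 in wild type and 15.0, 19.5 and 12.9 in the mutant, with no overlap.

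Other named lower genes encode a protease, a protease inhibitor and small defence-related proteins. SBT3.5, a subtilisin-like protease, had signals of 138, 133 and 74.3 in wild type and 54.3, 44.1 and 53.2 in the mutant (-1.05 ± 0.18, adjusted p = 0.0035). AT2G38870, a potato inhibitor I-type protease inhibitor, had 235, 183 and 191 in wild type and 91.5, 93.8 and 138 in the mutant (-0.89 ± 0.13, adjusted p = 0.0017). AT4G23680, of the family of major latex proteins, had 748, 688 and 583 in wild type and 339, 371 and 373 in the mutant (-0.88 ± 0.10, adjusted p = 2.1e-04). The groups did not overlap in any of them, as the choice of named genes required. AT1G14960, of the same family, also differed clearly, at 727, 483 and 395 against 240, 233.8 and 259. AT2G43530, a defensin-like gene, gave -0.85 (adjusted p = 0.014) and was lost without array 1 or 2 of either genotype (up to 0.081). HIS1-3, a linker histone variant known from drought responses, had tightly grouped signals of 82.7, 86.5 and 86.8 in wild type and 44.2, 49.1 and 37.5 in the mutant (-0.88 ± 0.12, adjusted p = 9.6e-04).

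Lower values were found for 4 class III peroxidases, secreted enzymes that oxidise phenolics and modify the wall. AT2G39040 had signals of 75.8, 49.5 and 44.2 in wild type and 24.5, 18.3 and 23.4 in the mutant, and AT1G34510 had 58.7, 44.6 and 33.2 against 18.3, 18.9 and 24.7 (-0.91 ± 0.17, adjusted p = 0.0069). AT5G64120 had 393, 349 and 260 against 173, 188 and 224 (-0.74 ± 0.14, adjusted p = 0.0081), and was lost without mutant array 1 (0.056). AT5G64110, its neighbour on chromosome 5, was lost without array 1 or 2 of either genotype (up to 0.082), and its mutant array 3 at 33.3 lay well above the other mutant arrays at 13.2 and 14.2. The symbol search for this family gave 5 tested probe sets with 1 called lower, AT5G64120, 2 with a positive difference and a median of -0.46, against 2.94% called lower and a median of 0.02 over all tested probe sets. PRX52, a peroxidase of lignin formation, gave -0.80 but varied from 85.6 to 192 in wild type alone and did not pass (adjusted p = 0.11). Of 7 tested beta-glucosidases, BGLU25 was lower at -0.79 ± 0.12 (adjusted p = 0.0019), and BGLU44 was lower at -0.40 (adjusted p = 0.028) but was lost without any 1 of the DMSO arrays other than wild-type array 1 (up to 0.0995). The 2 of 7 called lower compare with the same 2.94%, and the 7 had a median of -0.29.

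On a list of genes that respond within minutes to touch, cold or wounding, 2 of 3 tested members were lower, against 2.94% of all tested probe sets, and their calls rested on single arrays. They were ORA47, an AP2/ERF regulator of jasmonate synthesis, and CML38, a calmodulin-like calcium sensor. ORA47 had signals of 81.6, 71.5 and 62.3 in wild type and 19.6, 26.4 and 47.2 in the mutant (-1.12 ± 0.27, adjusted p = 0.026). CML38 had 95.7, 63.6 and 59.3 in wild type and 39.3, 26.5 and 44.7 in the mutant (-0.87 ± 0.21, adjusted p = 0.031). Groups were separate in both genes, yet both calls were lost without array 1 or 2 of either genotype (up to 0.13 and 0.16). STZ, a zinc finger repressor of the same response, had 548, 476 and 472 against 271, 270 and 373 and did not pass (-0.71, adjusted p = 0.064). The dim members CML37 (-0.34) and WRKY53 (-0.31) did not pass in the fit without the filter. Under trans-zeatin the genotype difference was -0.52 for ORA47, -0.02 for CML38 and 0.00 for STZ, none of which passed.

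Some of the named higher genes encode secreted or wall-associated proteins, but the lists of wall proteins held no higher call. Of 3 tested arabinogalactan and proline-rich wall proteins 0 were higher and 1 was lower, with a median of -0.33. Of 2 tested pectin methylesterases and inhibitors on their list 0 were called, with a median of 0.08. Over all tested probe sets 1.98% were higher and 2.94% lower. AT5G01870, a lipid transfer protein, had signals of 1046, 1203 and 1405 in wild type and 1861, 2208 and 1934 in the mutant (0.72 ± 0.11, adjusted p = 0.0019). AT5G51500, a pectin methylesterase, had 31.4, 41.9 and 51.5 in wild type and 74.0, 76.4 and 70.1 in the mutant (0.75 ± 0.13, adjusted p = 0.0037). AT4G12500, also of the lipid transfer type, was uniform in the mutant at 75.4, 73.1 and 76.2 against 22.3, 31.97 and 23.9 in wild type. The groups were separate in all 3 genes, as the choice of named genes required. AT4G12490, its neighbour in the genome, had 25.8, 36.3 and 32.4 against 72.1, 48.8 and 63.8, and was lost without mutant array 1 (0.056). The germin-like gene AT5G38910 had 106, 128 and 61.1 against 260, 217 and 261. The extensin-like gene AT1G26250 (0.67) was lost without any 1 DMSO array other than wild-type array 2 (up to 0.17). The formin gene AT5G48360 (0.66) was lost without any 1 other than wild-type array 3 (up to 0.19), and sks16, a relative of the root growth protein SKU5 (0.67), without array 1 or 2 of either genotype (up to 0.14).

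Further higher genes encode receptor kinases, a protein of iron regulation and proteins of ribosome production. On the iron deficiency list 0 of 2 tested genes were called (-0.10 and 0.21), against 4.92% of all tested probe sets. AT5G48940 encodes a receptor kinase for root meristem growth factor peptides and had signals of 44.0, 73.7 and 89.4 in wild type and 117, 125 and 109 in the mutant (0.76 ± 0.17, adjusted p = 0.018). It was lost without mutant array 1 or 2 (up to 0.087), as was AT5G59680, a leucine-rich repeat receptor kinase gene (0.77; also lost without wild-type array 1, up to 0.070). AT1G74770, a BRUTUS-like ubiquitin ligase that restrains iron uptake, had 61.1, 42.5 and 48.6 in wild type and 92.5, 87.7 and 80.7 in the mutant (0.72 ± 0.13, adjusted p = 0.0068). Every mutant array was above every wild-type array in these genes, as the choice of named genes required. AT3G05060, a nucleolar protein of the NOP56/NOP58 type needed for ribosomal RNA modification, had 191, 202 and 258 in wild type and 379, 379 and 312 in the mutant (0.71 ± 0.12, adjusted p = 0.0050). AT3G06530, related to yeast UTP10 of ribosomal RNA processing, gave 0.66 and was lost without array 1 or 2 of either genotype (up to 0.12). AT1G73600, a phosphoethanolamine methyltransferase gene of phosphatidylcholine synthesis, had 183, 146 and 158 against 375, 314 and 345. AT1G49470 had 146, 187 and 178 against 293, 307 and 281 (0.77 ± 0.12, adjusted p = 0.0019).

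Of the 30 named lower genes 21 held without any 1 DMSO array, and of the 30 named higher genes 15 did.

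**Figure D4:**
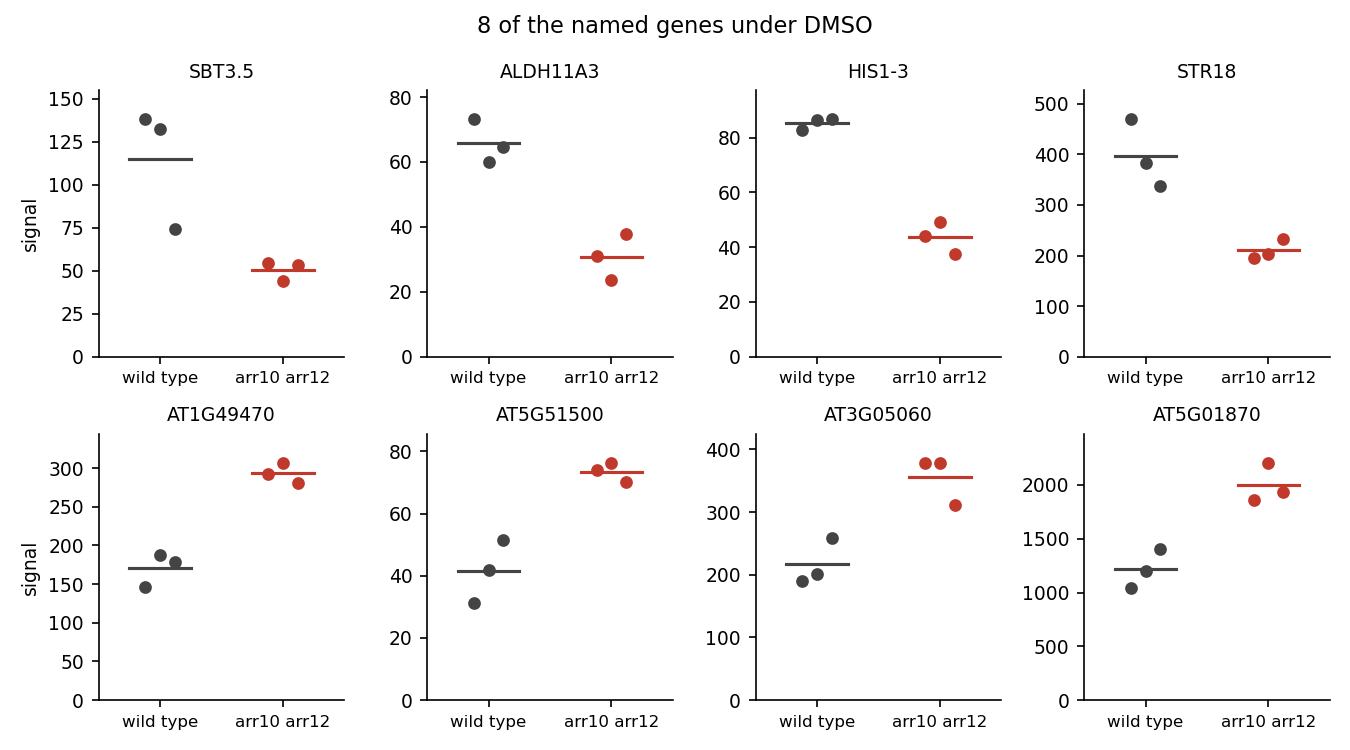
Signal of 8 of the named genes on each DMSO array (points) with the group mean (line), wild type in grey and arr10 arr12 in red, on axes that start at 0. The upper row shows 4 genes lower on all mutant arrays and the lower row 4 genes higher on all mutant arrays.

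Among the calls on the lists of root hair genes and wall-loosening enzymes, only EXPA15 was higher. On the root hair list, 2 of 4 tested genes were lower, against 2.94% of all tested probe sets, and the median was -0.42. EXPA7, a root hair expansin, had signals of 138, 109 and 105 in wild type and 61.6, 97.2 and 76.3 in the mutant (-0.55, adjusted p = 0.035). EXPA18, its close relative, had 177, 149 and 118 against 102, 109 and 94.5 (-0.49, adjusted p = 0.036). The groups did not overlap, but wild-type array 3 lay close to the mutant, and the calls were lost without 4 and 5 of the 6 DMSO arrays (up to 0.17 and 0.16), in both cases without wild-type array 1 or 2 and mutant array 1 or 3, and for EXPA18 also without mutant array 2. The other members, AT4G26010 (-0.34) and AT4G31000 (-0.30), did not pass. EXPA15, an expansin that is not specific to hairs, was higher, at 375, 404 and 448 in wild type and 710, 718 and 666 in the mutant (0.76 ± 0.09, adjusted p = 3.9e-04). Over all 13 tested expansins the count was 1 higher and 2 lower, against 1.98% and 2.94% of all tested probe sets, with a median of -0.01. Of 7 tested xyloglucan endotransglucosylases, which cut and rejoin wall polymers, only XTH32 was called (-0.53, adjusted p = 0.017), lost without wild-type array 1 or mutant array 1 or 2 (up to 0.090), against 2.94% lower over all tested probe sets, and the median was -0.30.

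Genes of the cytokinin pathway itself were mostly too dim or unannotated to be tested under DMSO. The type-A regulators ARR15 and ARR16 lay below the filter. ARR16 (symbol RR16) had signals of 11.9, 8.27 and 3.75 in wild type and 2.96, 0.12 and 3.30 in the mutant, without overlap. ARR15 had 12.6, 8.72 and 10.2 in wild type and 5.97, 8.75 and 4.96 in the mutant, with overlap at 1 mutant array. Neither passed in the fit without the filter (RR16, -0.72, adjusted p = 0.12; ARR15, -0.38, adjusted p = 0.31). UGT76C2, a cytokinin N-glucosyltransferase gene, had 125, 102 and 111 against 98.7, 59.0 and 91.6 with no call (-0.43, adjusted p = 0.13), and UGT76C1 was not called either (-0.18). Of the type-B regulators, RR18, RR19 and RR23 were at or below 1.61 on average in both genotypes.

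Several other lists held few tested genes, so few or no calls do not set them apart from the 4.92% called over all tested probe sets. Of the tested autophagy genes 10% were called. APG8A, which marks forming autophagosomes, was higher at 0.48 ± 0.10 (adjusted p = 0.015; lost without wild-type array 1 or mutant array 1 or 2, up to 0.076), while the other 9 tested autophagy genes did not pass and the list's median was -0.20. No member was called by limma among 3 cell cycle genes (median 0.30), 11 cytochrome P450 enzymes (-0.16), 12 glutathione transferases (-0.13), 5 WRKY factors (-0.06), 5 bHLH factors (0.05), 5 cellulose synthases and relatives (0.08), 4 glutaredoxins (-0.12) and 3 genes of the low oxygen response (-0.11). Root markers outside the hair cells, GSO1 of the endodermis (-0.14), UPB1 of the meristem zone (-0.07) and LBD16 of lateral root founder cells (0.02), did not pass either.

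The calls were spread over all chromosomes. Per the RefSeq annotation of assembly TAIR10.1, 5.66% of tested single-gene probe sets on chromosome 1 were called, and 4.00%, 3.10%, 3.71% and 4.39% on chromosomes 2 to 5. Within 500 kb of ARR12 on chromosome 2, 2 of 69 tested probe sets with a known position were called (2.90%). Within 500 kb of ARR10 on chromosome 4 it was 3 of 91 (3.30%). Over all tested single-gene probe sets the share was 4.35%, and so few calls do not set either window apart from it. Probe sets without an annotation entry could not be placed and are not counted in these windows. AT2G25510, 131 kb from ARR12, was higher, at 28.7, 23.4 and 21.0 in wild type and 50.4, 62.0 and 54.6 in the mutant. ALDH11A3, described above, lies in the same window. Near ARR10 the calls were AT4G31810 (0.46), AT4G30800 (0.47) and GAMMA-VPE (-0.34), a vacuolar processing protease gene. All of these were lost without array 1 or 2 of either genotype (up to 0.086, 0.15 and 0.15), and AT4G30800 and GAMMA-VPE also without mutant array 3.

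The largest differences of all were in probe sets without an annotation entry. For 253500_at the signal was 177, 187 and 165 in wild type and 4.204, 1.69 and 4.68 in the mutant, and for 264374_at it was 145, 149 and 149 against 1.79, 4.12 and 3.09. Both were near background on every mutant array, and whether either measures ARR10 or ARR12 was not tested. The next were 250083_at, at 266, 210 and 150 against 21.3, 23.7 and 24.9 (-2.81 ± 0.17), and 254283_s_at, at 280, 220 and 165 against 22.5, 31.8 and 33.4 (-2.65 ± 0.21). As with DFR, wild-type array 3 was the lowest wild-type array in each of these latter probe sets. In the other direction, 245553_at had 8.82, 17.0 and 13.3 in wild type and 51.4, 60.9 and 54.7 in the mutant (1.68 ± 0.14, adjusted p = 6.4e-06), and 263046_at had 60.9, 132 and 126 against 235, 291 and 411 (1.53 ± 0.23). Of 20 such probe sets with the largest differences, 15 held without any 1 DMSO array and 10 were also called under trans-zeatin.

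The same genotype comparison under trans-zeatin used the other 6 arrays and so shares with the DMSO comparison the estimate of spread and the filter but no array. There, 309 probe sets were called, 2.26% of those tested. In the same direction under both treatments were 92 lower and 28 higher probe sets, 17.9% of the DMSO calls and 38.8% of the trans-zeatin calls, and 0 were called in opposite directions. Of the probe sets lower under DMSO, 92.3% were also below 0 under trans-zeatin, and of those higher, 78.1% were also above 0, against 59.0% with the same sign over all tested probe sets. The median under trans-zeatin was -0.34 for the lower and 0.12 for the higher calls. Sizes were smaller under trans-zeatin for 608 of the 671, and since the DMSO arrays chose these probe sets, a smaller size on other arrays is favoured by the choice.

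Of the 30 named lower genes 15 were also called under trans-zeatin, and of the 30 named higher genes 6. Genes with a similar difference under both treatments were DFR (-2.86 and -2.62), ALDH11A3 (-0.97 and -0.85), PRK (-0.73 and -0.66), AT1G28100 (-0.89 and -0.94), AT1G73600 (1.06 and 0.97) and AT5G38910 (1.32 and 1.47). Genes called under DMSO that were nearer 0 under trans-zeatin were SBT3.5 (-1.05 and -0.28), AT1G26390 (-1.41 and -0.44), AT5G51500 (0.75 and 0.19), AT3G05060 (0.71 and 0.14) and CHIL (0.43 and -0.05), and for none of these 5 genes did the difference between treatments pass. That test called 5 probe sets in all (0.0366% of those tested), and 1476 had an unadjusted p below 0.05. EXPA15 was the single named gene among them: its genotype difference went from 0.76 under DMSO to -0.34 under trans-zeatin, where it was not called (adjusted p = 0.082). The probe set 264470_at was lower under DMSO (-1.17) and lower still under trans-zeatin (-2.97), and 267461_at was lower under DMSO (-0.77) and not called under trans-zeatin (0.12). The test of the difference for 267461_at was lost without wild-type DMSO array 2 or 3, mutant DMSO array 1 or 3, wild-type trans-zeatin array 1 or 2, or mutant trans-zeatin array 1 (up to 0.12).

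**Figure D5:**
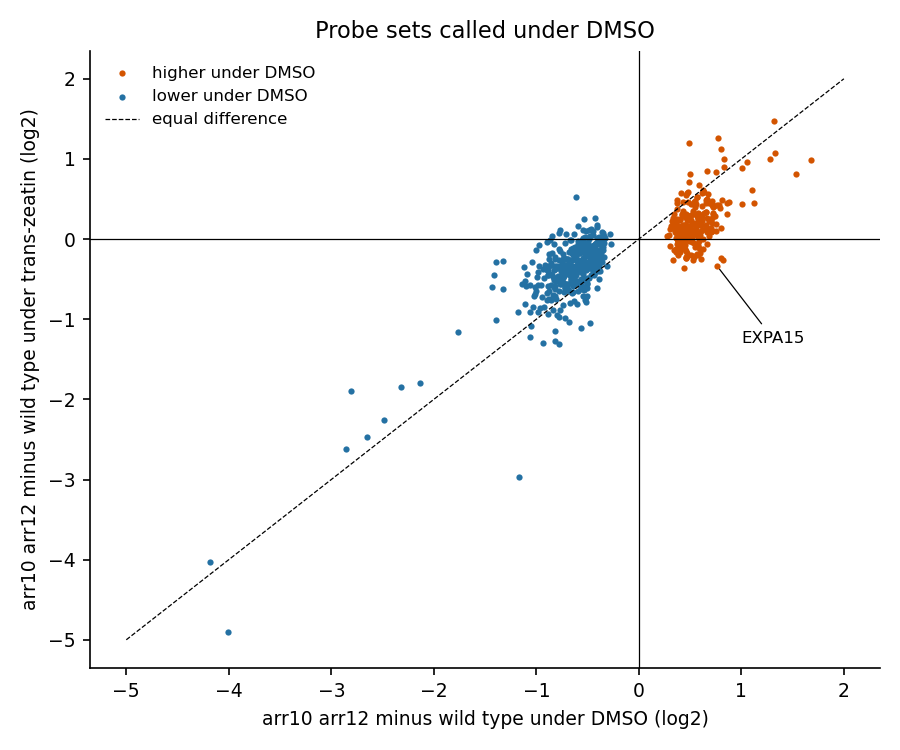
Each point is 1 of the 671 probe sets called under DMSO, with the genotype difference (log2, arr10 arr12 minus wild type) under DMSO on the horizontal and under trans-zeatin on the vertical axis, and a dashed line where both are equal. Of the lower calls 92.3% and of the higher calls 78.1% keep their sign; EXPA15 lies below 0 under trans-zeatin.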

How the data were processed

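Signals from 12 ATH1 arrays were used. The deposited values are linear intensity per probe set. The submitters' processing notes name MAS5 and GCOS, with versions not given in the sources used here. All arrays had a like scale, so no further normalization was applied. The 64 control probe sets were left out of 22810. Values were log2-transformed after adding 6.65, the 25th percentile. Probe sets were tested when their mean log2 value lay above the 40th percentile (a signal of 23.1), which drops genes dim in most groups. A mean per group was fitted over all 12 arrays with limma 3.58.1 in R 4.3.3, with an intensity trend, 2-sided, Benjamini-Hochberg adjustment and a threshold of 0.05; the procedure was tested on simulated data. Genes were named through the platform annotation and RefSeq (TAIR10.1): 13513 probe sets had 1 gene, 503 several and 8730 no entry, and the latter are given by identifier. Named genes are the 30 largest differences in each direction among called single-gene probe sets whose groups did not overlap, the 10 largest without an entry, and members of 66 gene lists. The comparison, members and lists were chosen with earlier results of these data known, so no list is independent evidence. The number of arrays limits the precision. Alternatives were the offset, the filter, quantile normalization, array weights, no trend, fewer arrays and a replicate block.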

Additional observations from a re-analysis of the deposited data

Results flagged for a closer look

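In 3 probe sets called under DMSO the genotype difference itself differed between treatments by limma's interaction test. For EXPA15 the difference under trans-zeatin minus that under DMSO was -1.10 ± 0.13 (SE, adjusted p = 0.0031), and signals (SD, 3 arrays each) were 409 ± 36.8 for wild type against 698 ± 28.2 for arr10 arr12 under DMSO and 1043 ± 98.9 against 824 ± 62.7 under trans-zeatin. For 264470_at it was -1.80 ± 0.22 (adjusted p = 0.0031), and for 267461_at it was 0.88 ± 0.14 (adjusted p = 0.021). The calls of EXPA15 and 264470_at held under all 20 alternatives. That of 267461_at was lost under 9 of them, with adjusted p up to 0.12: without the filter, without the intensity trend, and without wild-type DMSO array 2 or 3, wild-type trans-zeatin array 1 or 2, mutant DMSO array 1 or 3, or mutant trans-zeatin array 1. Neither of these probe sets has an annotation entry, and both were chosen after their values were seen. Since 267461_at was measured at 2165 ± 225 in wild-type DMSO roots and at 1265 to 1433 on average in the other groups, the wild-type DMSO mean is the one that stands apart.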

How the results depend on the processing

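Of 103 called probe sets named above or on a list, 55 kept their call under every alternative that tested them (15, or 14 where the stricter filter dropped the probe set), 48 lost it under at least 1, and 0 reversed; all 48 were lost without at least 1 DMSO array. The DMSO count of 671 was 420 without the filter, where 350 calls were shared and more probe sets were adjusted for, and 1307 with array quality weights, of which 628 were higher and 679 lower; the cause was not tested. It was 163 to 901 when 1 DMSO array was left out, which leaves 2 arrays in a group, 454 to 836 when 1 trans-zeatin array was left out, and 479 to 919 under the other alternatives. The trans-zeatin count of 309 was 151 to 361 with 1 array left out. The 5 interaction calls were 22 with array quality weights and 4 to 9 with 1 array left out.

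With the replicate number as a block (replicate block) the counts were 919 under DMSO, 471 under trans-zeatin and 7 for the interaction. The labels do not tie the numbers to a shared batch, and deviations from the group means correlated at 0.083, 0.040 and 0.069 between same-numbered DMSO arrays, each the best match of its array but below 0.1, so the numbers are not taken as pairs. The plastid-encoded median was 0.12 to 0.42 and the leaf marker median -0.72 to -0.49 over all alternatives, and neither changed sign. Signals near the offset, and 9099 probe sets below the filter, limit what can be seen of dim genes such as the type-A regulators.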
